A study of Drosophila melanogaster with 2 samples.

Results

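Small nucleolar RNA (snoRNA) genes were examined for binding of CG17568, a zinc finger protein of Drosophila melanogaster, in whole embryos. The members were all genes that the Ensembl annotation of the fly genome gives the biotype snoRNA, which includes those named scaRNA. They numbered 269 of 18358 annotated genes, with transposable elements left out. Chromatin immunoprecipitation with sequencing was done on mixed-sex embryos aged 0 to 20 h from a transgenic line that carries CG17568 with green fluorescent protein fused to its C terminus. The design has 1 group of 2 biological replicates, numbered 1 and 2, both with the fusion, and no second condition. The labels name a transcription factor assay and CG17568 as the antibody target, while their free text calls both samples input controls. They were read here as ChIP samples, and every value below depends on that reading. The labels do not give the promoter that drives the fusion or say whether the untagged protein was also present.

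The authors deposited a list of 3396 peaks thresholded by the irreproducible discovery rate (IDR), and relaxed lists of 30000 peaks each from replicate 1, replicate 2 and both pooled. All IDR peaks are also in the pooled list, so a "weaker" summit below is one of the pooled list that did not reach the IDR list. A summit is the highest point of a peak, and a gene was called when a summit lay within 500 bp of its transcription start site (TSS). The signal value is a score that the authors' caller gave each peak, in units that the files do not state. It is used to rank peaks within 1 list, and rank 1 is the highest. The files hold no read counts, so depth is unknown. Genes that share a summit are not independent, so counts of called genes are set beside the share of all annotated genes, where it was taken. That share follows the same rule, and no test was made across genes.

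SnoRNAs guide the chemical modification of ribosomal RNA and small nuclear RNA in the nucleolus and Cajal bodies. Box C/D snoRNAs pair with a target and direct 2'-O-methylation by the methyltransferase fibrillarin, while box H/ACA snoRNAs direct pseudouridylation by dyskerin. In flies most of them are not transcribed on their own. They lie in introns of host genes and are cut out of the spliced intron, so the promoter that produces a snoRNA is usually that of its host. Hosts are often ribosomal protein genes or other genes of translation. Some hosts, the Uhg genes, have no known protein product and carry snoRNAs in several of their introns.

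The 6 sites below, on X, 2L, 3L and 3R, are called ones with a host, and they show where the summits lie in relation to the host start. Each is read 5' to 3' on the strand of the host, from the Release 6 genome of RefSeq. In the first set of 4, capitals mark the first 20 bases from the host TSS, after 60 bases of upstream sequence.
RpL17, chrX:6744219-6744298, minus strand: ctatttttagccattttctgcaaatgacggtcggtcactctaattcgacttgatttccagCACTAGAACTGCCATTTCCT
RpL3, chr3R:11221834-11221913, plus strand: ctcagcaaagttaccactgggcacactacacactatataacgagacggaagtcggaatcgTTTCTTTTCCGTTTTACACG
RpS12, chr3L:13023292-13023371, plus strand: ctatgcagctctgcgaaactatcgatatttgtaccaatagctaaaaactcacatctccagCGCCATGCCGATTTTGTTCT
RpL15, chr3L:27267196-27267275, plus strand: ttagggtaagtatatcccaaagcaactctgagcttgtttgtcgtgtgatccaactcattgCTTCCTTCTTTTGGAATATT
The IDR summits lay 6, 25, 23 and 62 bp downstream of these start sites, in the order given. Within the capitals, TCTTT begins at base 3 from the TSS in RpL3 and at base 7 in RpL15.

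At the remaining pair of sites the summit lay upstream of the host, 185 bp from the TSS of Uhg2 and 139 bp from that of CG43051. Their sequences are centred on the summit, and capitals mark the summit base with 2 bases to either side.
Uhg2, chr2L:9895138-9895238, minus strand: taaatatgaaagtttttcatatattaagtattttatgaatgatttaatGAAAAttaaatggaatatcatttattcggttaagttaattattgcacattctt
CG43051, chr2L:12507750-12507850, plus strand: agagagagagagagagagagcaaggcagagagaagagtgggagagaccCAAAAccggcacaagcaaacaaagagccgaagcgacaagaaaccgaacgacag

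The snoRNAs in introns of 3 of these hosts show what the called genes encode. In the H/ACA snoRNA, capitals mark the ACA triplet near the 3' end. In the box C/D snoRNAs, they mark box C (TGATGA) and box D (CTGA).
snoRNA:Psi28S-1232 in RpL17, chrX:6743675-6743815, minus strand: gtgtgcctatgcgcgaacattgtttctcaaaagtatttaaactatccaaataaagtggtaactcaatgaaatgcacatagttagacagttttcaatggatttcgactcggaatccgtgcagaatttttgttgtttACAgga
snoRNA:Me28S-A774b in RpS12, chr3L:13023580-13023652, plus strand: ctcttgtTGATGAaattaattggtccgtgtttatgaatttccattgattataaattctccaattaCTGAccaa
snoRNA:Me18S-A1576 in Uhg2, chr2L:9894795-9894907, minus strand: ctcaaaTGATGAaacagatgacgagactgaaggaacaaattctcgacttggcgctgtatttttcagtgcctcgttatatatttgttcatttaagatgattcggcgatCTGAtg

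Of the 269 snoRNA genes, 17 (6.32%, Wilson 95% interval 3.98 to 9.89) had an IDR summit within 500 bp of the TSS, against 8.88% of all annotated genes. In the pooled relaxed list 71 (26.4%) had a summit, against 28.8% of all genes. The counts were 69 in the list of replicate 1 (25.7%, against 29.8% of all genes) and 63 in that of replicate 2 (23.4%, against 31.6%). Both replicate lists held a summit for 46 genes, which is 17.1% against 24.3% of all genes. No list held a summit near 182 genes, a count for which no share of all annotated genes was taken. The 3396 highest peaks of replicate 1 alone gave 15 genes (5.58%, against 8.93%), and those of replicate 2 alone 21 (7.81%, against 9.97%). As a group, snoRNA genes were thus called at a share near or below that of the annotation. The median distance from a snoRNA gene to the nearest IDR summit was 6114 bp, and for 142 genes it was over 5000 bp. This distance was not taken for all annotated genes, so these values have none to be set beside.

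The 17 called genes shared 13 summits. Among them were 7 of 120 box H/ACA genes, 6 of 100 box C/D genes and 4 of the 49 genes whose name gives no box class. By arm, 9 of the 96 genes on 2R, 3 of 52 on 3L, 2 of 41 on 2L, 2 of 48 on 3R and 1 of 31 on X were called, while the 1 gene on chromosome 4 had a weaker summit. The 9 genes on 2R rested on 5 summits, and no share of all annotated genes was taken by arm. The signal of the 13 summits had a median of 250.8 and ran from 134.8 to 632.7, against a median of 188 over the whole IDR list. Their best rank was 156 and their worst 3040, with a median of 1011. None of the 13 lay inside a snoRNA gene.

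Hosts on the same strand divided the snoRNA genes into 76 in ribosomal protein genes, 126 in other coding genes, 45 in non-coding genes and 22 with no host. IDR summits were near 6 of 76 (7.89%), 1 of 126 (0.794%), 5 of 45 (11.1%) and 5 of 22 (22.7%) of these, in the same order. The share of all annotated genes was 8.88%. The Wilson 95% intervals were 3.67 to 16.2%, 0.140 to 4.36%, 4.84 to 23.5% and 10.1 to 43.4%. They treat genes as independent, although the 5 called genes in non-coding hosts rested on 3 summits, as did the 5 without a host. With weaker summits included, the counts were 7, 22, 28 and 14 genes. In ribosomal protein hosts 1 gene had a weaker pooled summit only. No summit in any list was near 66 of the 76, a count without a share of all annotated genes. Some pooled summit was near 62.2% of the genes in non-coding hosts and 63.6% of those without a host, against 17.5% in other coding hosts. The share of all annotated genes was 28.8%. The strongest summits near the 28 genes in non-coding hosts were 14 distinct ones, and Uhg1 held 14 and Uhg5 9 of the 28 genes. For 12 snoRNA genes a second gene on the same strand could also be the host, and the class was then taken in the order ribosomal protein, other coding, non-coding.

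**Figure D1:**
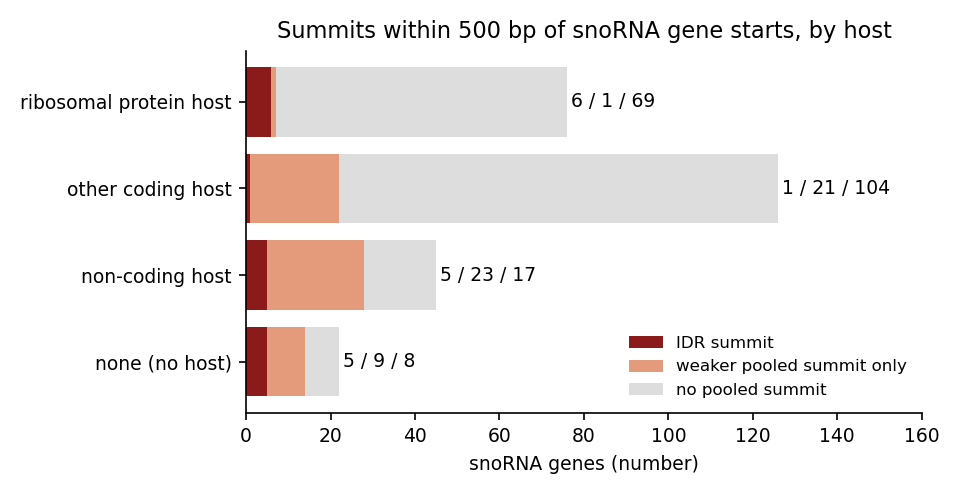
Number of snoRNA genes (x axis) by class of host gene on the same strand (rows). Segments and printed numbers give genes with an IDR summit, with a weaker pooled summit only, and with no pooled summit within 500 bp of the TSS; the other coding class is the largest, with 126 genes, and holds 1 gene with an IDR summit.

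At called snoRNA genes with a host, the summits lay nearer to the host start than to the snoRNA. All of the 12 called genes with a host had their summit within 500 bp of a host TSS as well. Their 10 summits were at most 185 bp from it, with a median of 43.5 bp, and 8 were within 100 bp. All 10 were nearer to the host TSS than to the start of any snoRNA. The distance to a host TSS was bounded in part by the window, since 11 of the 12 genes begin within 500 bp of one. All 17 called genes had the summit upstream of the snoRNA start, at distances from 38 to 496 bp.

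**Figure D2:**
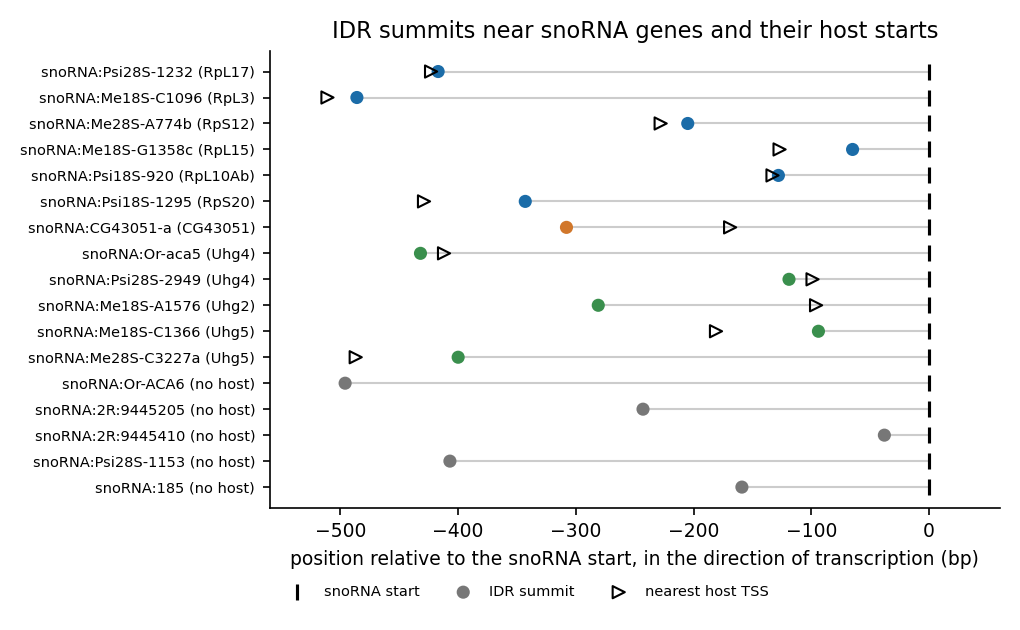
Position in bp relative to the snoRNA start (x axis, transcription to the right) of the strongest IDR summit and of the host TSS nearest to it, for the 17 called snoRNA genes (rows, host in parentheses). Filled points are summits, in blue for ribosomal protein hosts, orange for the other coding host, green for non-coding hosts and grey for no host; open triangles are host start sites, within 185 bp of the summits.

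Nearly all called snoRNA genes with a host began close to its start. Of the 32 hosted genes that begin within 500 bp of a host TSS, 11 (34.4%) had an IDR summit within 500 bp of their own start. Of the 215 that begin farther away, 1 did (0.465%), namely snoRNA:Me18S-C1096, which begins 511 bp from the TSS of RpL3. Yet the hosts of 79 of these 215 genes carried an IDR summit at the promoter. The median distance of a snoRNA from its host TSS was 944.5 bp in ribosomal protein hosts, 2208 bp in other coding hosts and 1203 bp in non-coding hosts. The window of 500 bp around the snoRNA start thus left out most host promoters. At its edge, snoRNA:Or-ACA6 lay 496 bp from an IDR summit of signal 268.9 and was called, and snoRNA:Or-CD13 lay 501 bp from the same summit and was not. Next outside was snoRNA:Me28S-A2113, 543 bp from a summit of signal 457.4.

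**Figure D3:**
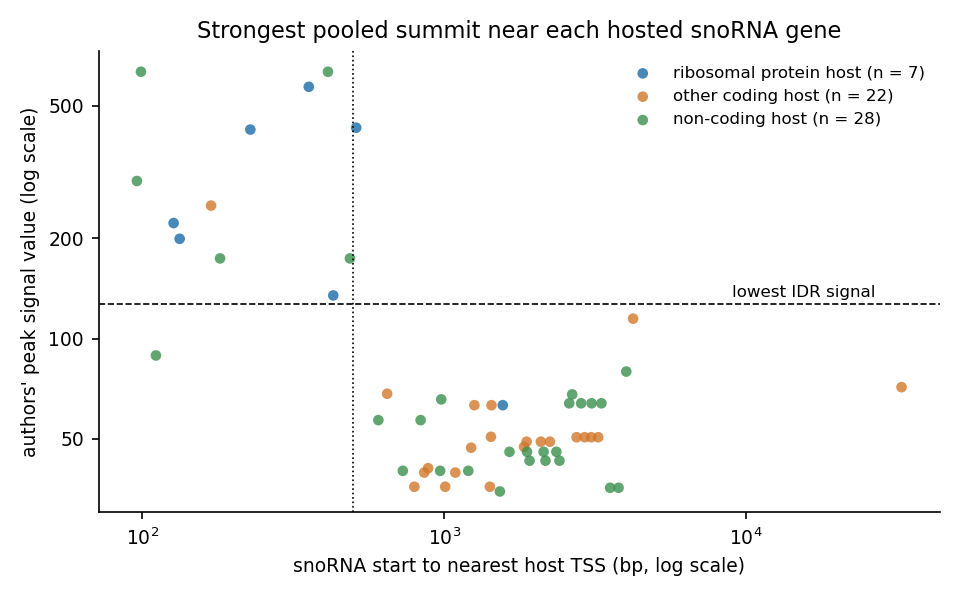
Signal value of the strongest pooled summit within 500 bp of each hosted snoRNA gene (y axis, log scale) against the distance of the snoRNA start from the nearest host TSS (x axis, bp, log scale), with 1 point per gene and colour for the class of host. The dashed line is the lowest signal in the IDR list and the dotted line 500 bp; 11 of the 12 points above the dashed line lie left of the dotted line.

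The 90 distinct hosts gave a different picture from the snoRNA genes themselves. An IDR summit lay within 500 bp of a TSS at 34 hosts (37.8%, Wilson 95% interval 28.5 to 48.1). The share was 8.88% of all annotated genes and 10.1% of protein-coding genes. Of the 34 called hosts, 18 were ribosomal protein genes, so the share over all hosts depends on the mix of host classes. These 34 hosts carry 97 of the 247 hosted snoRNA genes (39.3%), of which 85 had no IDR summit near their own start. Among ribosomal protein hosts 18 of 29 were called (62.1%), against 59.1% of all 88 cytosolic ribosomal protein genes. The same 18 were the ribosomal protein hosts with a pooled summit, against 61.4% of the 88. Ribosomal protein genes without a snoRNA were called in 34 of 59 cases (57.6%, interval 44.9 to 69.4), which overlaps the interval of 44.0 to 77.3% for the hosts. Median signals were 413 at called hosts and 331 at called ribosomal protein genes without a snoRNA. Of the 54 other coding hosts 13 were called (24.1%, interval 14.6 to 36.9), against 10.1% of all protein-coding genes. Each annotated TSS of a gene was given a window, so genes with several start sites had more chances to be called. The number of start sites was not matched between hosts and other genes. Of the 7 non-coding hosts 3 were called (42.9%, interval 15.8 to 74.95), against 5.21% of all ncRNA genes. Among these, the summits at Uhg2 and Uhg5 also lay within 500 bp of a coding TSS. A pooled summit was at 31 of the other coding hosts (57.4%, against 29.2% of protein-coding genes) and at 5 non-coding hosts (71.4%, against 27.8% of ncRNA genes).

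Ribosomal protein hosts carried their summits at the start site. The median distance to the host TSS was 24 bp over the 18 called hosts, and 17 of them were within 100 bp. The highest signal was at RpS4, which encodes a small subunit protein and carries 3 snoRNA genes, the nearest of them 966 bp from its TSS. Its pooled signal was 650 (rank 147), 2 bp downstream of the TSS, with signals of 324.9 in replicate 1 (rank 146) and 331.7 in replicate 2 (rank 150). RpS5a, which carries 14 snoRNA genes, more than any other ribosomal protein gene, had a signal of 219 at 45 bp upstream. RpS7, with 7, had a signal of 446 at 21 bp downstream. None of the snoRNA genes of RpS4, RpS5a and RpS7 had a pooled summit within 500 bp of its start. RpL28 and RpS16, with 5 snoRNA genes each, had no pooled summit at the promoter.

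The 6 called snoRNA genes in ribosomal protein hosts belonged to 6 different hosts. snoRNA:Psi28S-1232, named for a pseudouridine of 28S rRNA, lies in RpL17, a large subunit protein gene on X. Its summit had a signal of 570 in the pooled list (rank 195), of 258 in replicate 1 (rank 236) and of 304 in replicate 2 (rank 182). snoRNA:Me28S-A774b lies in RpS12, a small subunit gene, and its summit had a pooled signal of 424 (rank 376), with 184.6 in replicate 1 (rank 504) and 237 in replicate 2 (rank 318). These summits of RpL17 and RpS12 ranked among the upper 504 peaks of every list.

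snoRNA:Me18S-C1096, named for a methylated base of 18S rRNA, lies in RpL3. Its summit had a signal of 429.7 in the pooled list (rank 368) and of 233.5 in replicate 2 (rank 330), but replicate 1 had no summit within 100 bp. snoRNA:Me18S-G1358c in RpL15 and snoRNA:Psi18S-920 in RpL10Ab had IDR summits of lower signal, 222 and 199 in the pooled list. The RpL15 summit ranked 1444 in replicate 1 and 1388 in replicate 2, and the RpL10Ab summit 2411 and 1222. snoRNA:Psi18S-1295 in RpS20 had the lowest IDR signal of the 13, at 134.8, with rank 4294 in replicate 1 and 6830 in replicate 2. RpS20 also had a stronger IDR summit of signal 351 at 115 bp upstream of its TSS, too far from the snoRNA to be counted for it. A TSS of a second coding gene lay within 500 bp of the summits at RpL3 (CG6693) and RpS20 (CG17271).

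Several ribosomal protein hosts had a summit in the list of 1 replicate only. Replicate 1 had a summit at 18 of the 29 hosts and replicate 2 at 23, with 17 in common. At 6 hosts with a summit in replicate 2, replicate 1 had none within 500 bp in its 30000 peaks, namely RpL3, RpL23A, RpL27A, RpL30, RpS16 and RpS6. Their ranks in replicate 2 ran from 213 at RpL30 to 956 at RpS6. The nearest summit of replicate 1 was 2300 bp from the TSS of RpL30 and 23318 bp from that of RpL27A, with the others in between.

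RpL3 and RpL30 still entered the pooled and IDR lists, at signals of 430 and 457. RpL23A, RpL27A, RpS16 and RpS6 were in neither, although RpS16 ranked 290 and RpL23A 395 in replicate 2. Conversely RpS29 ranked 1238 in replicate 1 and was absent from replicate 2 and from the pooled list. So 6 of the 11 ribosomal protein hosts without a pooled summit had one in at least 1 replicate, RpL28 among them at ranks 23800 and 28422, and 5 had none in any list. Of the 22 ribosomal protein hosts with one of the 3396 highest peaks of replicate 2, 6 (27.3%) had no summit of replicate 1 within 500 bp of the TSS, and of those 3396 peaks themselves 4.56% had none within 500 bp of the summit. For ribosomal protein genes without a snoRNA the count was 4 of 37 (10.8%). In the other direction 1 of 17 ribosomal protein hosts lacked a summit in replicate 2, and 2.47% of the 3396 highest peaks of replicate 1. The part of depth or of peak calling in these absences was not tested, and the lists carry no read counts.

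**Figure D4:**
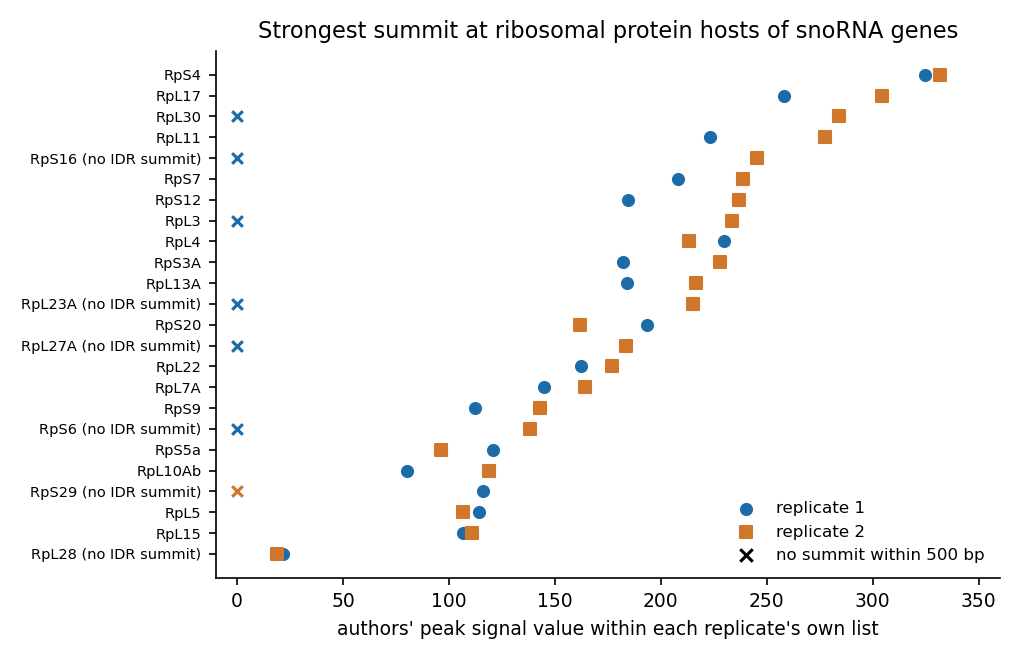
Signal value of the strongest summit within 500 bp of the TSS in replicate 1 (blue circles) and replicate 2 (orange squares) for the 24 ribosomal protein hosts with a summit in at least 1 replicate list (rows). A cross at 0 stands for no summit in that replicate's list and not for a measured value; 6 hosts lack one in replicate 1 and RpS29 lacks one in replicate 2.

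Of the 7 non-coding hosts, Uhg2, Uhg4 and Uhg5 had an IDR summit near the start, Uhg1 and lncRNA:CR31647 had weaker summits only, and Uhg3 and Uhg8 had no pooled summit. Uhg4 on 2R, with 7 snoRNA genes, had the strongest summit at any called snoRNA gene, 20 bp upstream of its TSS. The pooled signal was 632.7 (rank 156), with 314 in replicate 1 (rank 161) and 329 in replicate 2 (rank 155). This summit served snoRNA:Psi28S-2949 and snoRNA:Or-aca5, both box H/ACA, which begin 99 and 412 bp from the TSS. No other pooled summit lay in Uhg4.

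Uhg2 on 2L, with 4 snoRNA genes, had a summit of signal 297 (rank 755), which ranked 672 in replicate 1 and 1088 in replicate 2. It lay between Uhg2 and the coding gene Bka on the opposite strand, 185 bp upstream of Uhg2 and 99 bp upstream of Bka, so it cannot be given to Uhg2 alone. snoRNA:Me18S-A1576 was called through it. Uhg5 on 2R, with 11 snoRNA genes, had a summit of signal 174 (rank 1948) at 87 bp downstream of its TSS, for snoRNA:Me18S-C1366 and snoRNA:Me28S-C3227a. It ranked 5054 in replicate 1 and 1326 in replicate 2, and a TSS of the coding gene CG12863 also lay within 500 bp of it.

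Uhg1 on 2R, the non-coding host with the most snoRNA genes (16), had its nearest IDR summit 15502 bp from its TSS. It carried 6 pooled summits instead, from 49 to 3971 bp downstream of the TSS, with signals from 34.1 to 89.0 and ranks from 6084 to 27523. A total of 14 of its 16 snoRNA genes had a weaker summit within 500 bp. For snoRNA:Me18S-A28a, the last in the gene, the strongest of these lay past the 3' end of Uhg1. Uhg5 likewise had 3 weaker summits in the gene, with signals from 38.2 to 43.0. The nearest pooled summit was 1960 bp from the TSS of Uhg3 and 3377 bp from that of Uhg8. Uhg3 had a summit in replicate 2, with a signal of 30.3 (rank 13947) at 137 bp upstream, and none in replicate 1. Uhg8 had a summit in each replicate list, with a signal of 52.4 (rank 5202) at 121 bp downstream in replicate 1 and of 86.0 (rank 2291) at 111 bp downstream in replicate 2. The last non-coding host, lncRNA:CR31647 with 1 snoRNA gene, had a weaker summit of signal 37.7 at 49 bp downstream. Uhg7 overlaps RpL23A on the same strand, so its 4 snoRNA genes were counted under RpL23A, and its nearest pooled summit was 14638 bp away.

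**Figure D5:**
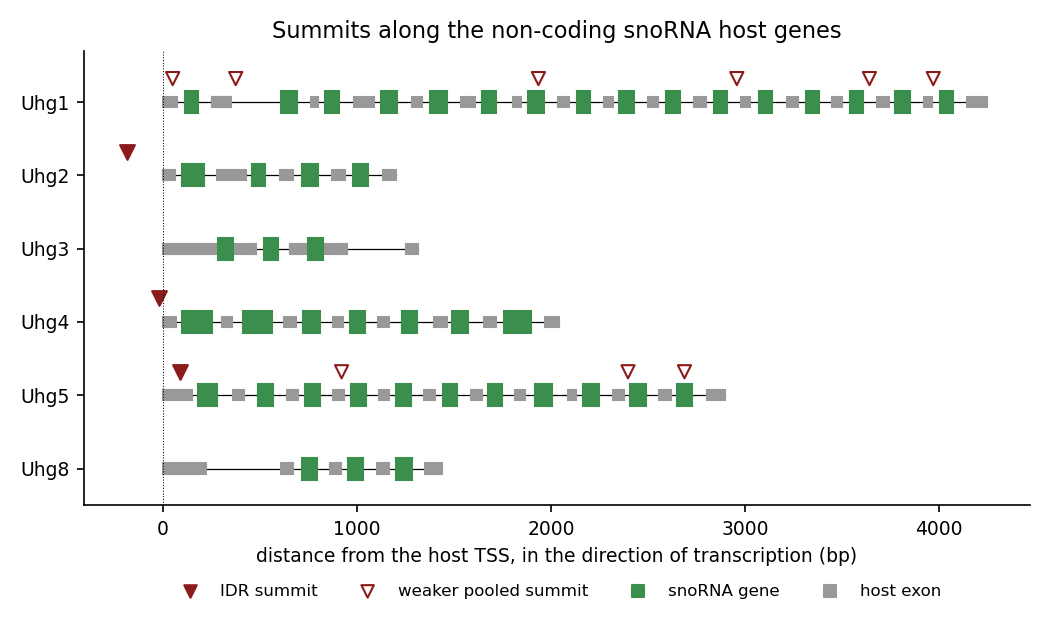
Maps of 6 Uhg genes drawn to scale by distance from the TSS (x axis, bp), with exons in grey and snoRNA genes in green. Filled triangles are IDR summits and open triangles weaker pooled summits within the gene or 500 bp of its TSS; the IDR summits of Uhg2, Uhg4 and Uhg5 sit at the start, while Uhg1 has 6 weaker ones along its length.

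Among other coding hosts, the only called snoRNA gene was snoRNA:CG43051-a, which overlaps an exon of CG43051. Its summit, 139 bp upstream of the host TSS, had a pooled signal of 250.8 (rank 1011) and ranked 1060 in replicate 1 and 1205 in replicate 2. The 13 called hosts of this class were led by Stt3A, a subunit of the oligosaccharyltransferase, with a signal of 1085 (rank 43) at 386 bp upstream. The hosts with the most snoRNA genes were not among them. Arpc2, a subunit of the Arp2/3 actin nucleator with 17 snoRNA genes, had a pooled signal of 74.4 at the promoter. The chromatin remodeller dom with 15, the splicing factor gene Sf3b3 with 9 and Nop60B with 7 had no pooled summit there. Only Hrb98DE, an RNA-binding protein gene with 7 snoRNA genes, had an IDR summit among coding hosts outside the ribosome that carry 5 or more, with a signal of 135 at 47 bp downstream.

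Of the 22 snoRNA genes with no host, 5 were called through 3 summits, all on 2R. snoRNA:2R:9445205, snoRNA:2R:9445410 and snoRNA:Psi28S-1153 shared a summit with a signal of 241, which ranked 1155 in replicate 1 and 1247 in replicate 2. It lay 38 bp upstream of snoRNA:2R:9445410, the shortest distance from a snoRNA start of any called gene, and 452 bp upstream of CG13334 on the opposite strand. The summit near snoRNA:185 had a signal of 212 and was 1971 bp from the nearest TSS of a gene other than a small RNA, the pseudogene tRNA:Glu-CTC-5-1Psi. That near snoRNA:Or-ACA6 had a signal of 269, ranked 1032 and 783 in replicates 1 and 2, and was 3348 bp from the nearest such TSS, that of CG2269. These last 2 summits are the called sites with no annotated promoter of a longer gene within 500 bp.

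Weaker summits at snoRNA genes lay mostly away from host starts. The pooled list held 38 of them, with a median signal of 50.1 against 51.2 over the whole pooled list, and a median rank of 15530 of 30000. Of the 29 at hosted genes, 4 were within 500 bp of a host TSS, and the median distance to it was 1846 bp. This distance was set in part by the choice of summits near snoRNA starts. Of the 247 hosted genes, 215 begin more than 500 bp from a host TSS. A summit within 100 bp was found in both replicate lists for 10 of the 38 (26.3%), in 1 for 25 and in neither for 3. Of the 13 IDR summits, 12 (92.3%) were found in both, against 94.5% of the whole IDR list, and 10 were in the 3396 highest peaks of both, against 66.5% of the whole IDR list. In all, 5 weaker summits lay inside a snoRNA gene, those of snoRNA:Psi28S-3385a and snoRNA:Psi28S-2442b in kra, snoRNA:lola-d in lola, snoRNA:U29:54Ed in Uhg1 and snoRNA:Or-CD4 in Uhg5. None of these 5 was found within 100 bp in both replicate lists, and that inside snoRNA:Or-CD4 was found in neither. Their signals ran from 35.9 to 50.6, and the lowest in the pooled list was 31.85. Up to 4 snoRNA genes shared 1 weaker summit.

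The strongest pair of weaker summits came close to the lowest IDR signal of 127 without a host start nearby. snoRNA:Me18S-C1968 in Swim had a signal of 114.8 (rank 3997), 4444 bp from the nearest host TSS, and ranked 2126 in replicate 2 but 12531 in replicate 1. snoRNA:Psi28S-3342, which has no host, had 114.1 (rank 4033) and ranked 2859 in replicate 1 and 7196 in replicate 2. Then came snoRNA:Me28S-G3081a (89.0) and snoRNA:Me18S-A28a (79.6) in Uhg1, snoRNA:CG31191-a in CG31191 (71.5) and snoRNA:gcl-a in gcl (68.3). snoRNA:Or-CD4 in Uhg5 (68.0) and snoRNA:U14:30Eb in Uhg2 (65.7) followed. Both of these summits lay past the 3' end of the host. That near snoRNA:U14:30Eb was 112 bp upstream of the coding gene mtDNA-helicase. The next value, 64.0, belonged to 1 summit in Uhg1 shared by snoRNA:snR38:54Eb, snoRNA:U31:54Eb, snoRNA:U31:54Ec and snoRNA:U31:54Ed.

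Genes for core proteins of the snoRNA-protein particles (snoRNPs) and for their assembly factors were also considered. Of 14 genes for the core box C/D proteins (Fib, nop5, Nop56, hoip), the core H/ACA proteins (Nop60B, NHP2, Gar1, Nop10) and assembly factors (pont, rept, Nopp140, CG10341, spag, Nufip), 1 had an IDR summit, against 10.1% of all protein-coding genes. This was rept, a helicase of the AAA+ family, with a pooled signal of 187 (rank 1729) at 119 bp upstream of its TSS, and 76.8 in replicate 1 and 107 in replicate 2. Weaker pooled summits lay at hoip (59.1), Gar1 (68.9), CG10341 (78.6) and Nufip (72.1), so 5 of the 14 had a pooled summit, against 29.2% of all protein-coding genes. pont, the partner of rept in the same helicase complex, had signals of 138 in replicate 1 (rank 886) and 149 in replicate 2 (rank 836), 68 and 136 bp upstream, but its nearest pooled summit was 1991 bp away. Fib, which encodes fibrillarin, and Nop60B, which encodes dyskerin, had no summit within 500 bp in any list.

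The windows of 101 bp centred on the 13 IDR summits were searched on both strands for motifs. TCTTT, the core of the polypyrimidine initiator of translation genes, was in 11 of the 13 windows (84.6%), in 33.9% of the windows at all IDR summits and in 13 of 38 windows at weaker snoRNA summits (34.2%). TCTTT is short and common, and several windows include the host start. A match on either strand anywhere in a window need not be an initiator. Windows with TCTTT included those near snoRNA:Or-ACA6 and snoRNA:2R:9445410, which have no host. On the sense strand within 10 bp of a TSS, it was found at 15 of 29 ribosomal protein hosts (51.7%), 36 of 59 ribosomal protein genes without a snoRNA (61.0%), 4 of 54 other coding hosts (7.41%) and 2 of 7 non-coding hosts (28.6%). The share of all protein-coding genes was 3.20%. GAGAG was in 1 of the 13 windows, at CG43051, and in 12.0% of all IDR windows. CACGTG was in 1 and TATAAA in 1 of the 13, and in 0.677% and 22.2% of all IDR windows. Neither ATCGAT nor TATCGATA, which contains it, was in any of the 13, and they were in 2.92% and 0.471% of all IDR windows. TATCGATA does occur in the RpS12 sequence shown above, upstream of the TSS and outside the window at its summit. Among 8-mers in 1% or more of IDR windows, that with the highest ratio of summits to flanks, TAGGTAAA (1.15% of all IDR windows), was in none of the 13. The mean GC content was 38.2% in the 13 windows and 34.8% in all IDR windows.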

How the data were processed

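Starting points were the peak lists that the authors deposited on dm6, in narrowPeak format per the text deposited with them, for 2 ChIP samples of 1 group. Each peak carries a signal score, whose scale the files do not state, and a −log10 q-value, which the authors also deposited and which was not used for calls. Aligner, caller, versions and IDR threshold: not given in the sources used here. Summits (start plus offset) were placed on Ensembl release 115 gene models of BDGP6. Sequences came from the RefSeq genome of the same assembly (Release 6), and all peak ends lay within the Release 6 chromosomes. A host is a longer gene on the same strand that spans the snoRNA gene. Cytosolic ribosomal protein genes were taken by symbol, without genes named -like. Replicate summits matched within 100 bp. Scripts in Python 3.11.15 with pandas 2.3.3, numpy 2.4.6, scipy 1.17.1 and matplotlib 3.10.9 were tested on made data with known answers.

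Wilson 95% intervals cover counting error only, since genes and peaks are not replicates. The members and lists were chosen with earlier results of these data known. Named were all snoRNA genes with an IDR summit, the 10 of highest signal among the others, the Uhg genes and the protein lists; other named hosts were chosen after their values were seen. CG4038 and CG7637 of the list are Gar1 and Nop10 in the annotation. Alternatives covered the window, the distance used, the list, each replicate alone, the definition of a host and the matching distance.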

Additional observations from a re-analysis of the deposited data

How the results depend on the processing

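The width of the window set the counts. With 250 bp in place of 500 bp, 8 snoRNA genes had an IDR summit, at 7 distinct summits, 3 of the genes in ribosomal protein hosts and 5 with the summit within the window of the host TSS, while 42 had a pooled summit and 22 a summit in both replicate lists. With 1000 bp these counts were 43 genes, 26 summits, 17, 34, 110 and 93. The counts are nested by construction. No share of all annotated genes was taken at 250 or 1000 bp, so these counts have none to be set beside. Without replicate 1 or replicate 2, taking the 3396 highest peaks of the other, the number of called genes was 21 or 15, of summits 15 or 12, in ribosomal protein hosts 6 or 5 and at host starts 14 or 9, and 63 or 69 genes had a relaxed summit. A summit in both replicates cannot be counted with 1 replicate left out. The other alternatives (distance to the gene span, the upper 1698 IDR peaks, a host on either strand, an intron required, and other matching rules) moved no count by more than 1.5 times. No paired analysis was possible because there is 1 group. Unknown read depth limits what an absent summit means.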

Other observations

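The snoRNA genes without a host that had no IDR summit were not all without signal. Among the 22, 9 had a weaker pooled summit, such as that 440 bp upstream of snoRNA:U3:54Ab, which encodes U3, a snoRNA needed for cleavage of pre-ribosomal RNA. Its signal was 53.4, with a summit within 100 bp in replicate 2 (rank 12103) and none in replicate 1. The snoRNA genes of kra, a translation regulator gene with 8 of them, had 2 weaker summits with signals of 50.6 and 35.9, for 7 of the 8. At the promoter of kra itself the pooled signal was 121, just below the lowest IDR signal of 127. The pooled list had no counterpart of the summit 207 bp upstream of nop5, host of a snoRNA and itself a core snoRNP protein gene, which ranked 1981 in replicate 1 with a signal of 89.8 and had no counterpart in replicate 2. Together with RpS29 it made 2 hosts that were high in replicate 1 and absent from replicate 2, against 7 hosts the other way round, counting Dek among the coding hosts. All of these were picked with their values in view, and none was tested.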
